A study of Homo sapiens with 60 samples.

Results

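The 41 genes described here act at the G2/M boundary and in mitosis itself, and were measured in SW1783 cells, a human astrocytoma line, after 24 h with plant extracts. They were chosen by name, from a list of mitotic genes, with earlier results of these data known. All 41 were among the 60675 identifiers of the count table. By role they comprised 6 cyclin, CDK1 and CDC25 phosphatase genes, 3 mitotic kinase genes, 4 spindle checkpoint genes and 3 partners of the anaphase-promoting complex. The others were 5 kinetochore and centromere genes, 9 kinesins, 5 spindle assembly factors, 3 cytokinesis genes, and TOP2A, MKI67 and FOXM1. All 41 passed the filter on low counts that left 19366 genes for testing.

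The study sequenced poly(A) RNA from these cells (60 libraries) after exposure to ethanol extracts of single medicinal plants or of multi-herb formulas, or to the DMSO vehicle. Polygalae Radix was given at 1.2, 6 and 30 µg/mL and Aucklandiae Radix at 6.4, 32 and 160 µg/mL, with 2 libraries at each dose. The herbs Menthae Herba and Saposhnikoviae Radix and the formulas Guibi-tang and Saengmaek-san were each given at 20, 100 and 500 µg/mL with 3 libraries a dose. Soyo-san at the same doses had 2 libraries each, and Okbyeongpung-san had 1 library a dose. The vehicle group had 3 libraries, and every comparison with vehicle shares them. The doses are called low, medium and high. Extracts with a lower inhibitory concentration were used at that concentration and its dilutions, so equal dose names do not mean equal concentrations. All groups are the same cell line in L-15 medium, without other agents. The labels do not say whether libraries of a group came from separate cultures, so the spread between them may be technical.

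Entry into mitosis needs CDK1 bound to cyclin A or cyclin B, with its inhibitory phosphates removed by CDC25 phosphatases. Kinesin motors and their partners then build the spindle, the checkpoint kinases hold back CDC20 until every kinetochore is attached, and the anaphase-promoting complex with CDC20 destroys securin and cyclin B. Most of these genes are transcribed in G2 and mitosis: the DREAM complex represses them in resting cells through a promoter element called CHR, and the MuvB core with B-MYB and FOXM1 activates them later, often with the CCAAT-binding factor NF-Y. In a proliferating line such as this one, they are in wide use as markers of dividing cells. In bulk libraries, fewer cells in those phases and less RNA per cell cannot be told apart.

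The promoters of 5 members that the results turn on are shown because KIF20A had the largest change of the module, while CDC20, PLK1, CCNB2 and CDK1 mark contrasting responses. Each line gives the 120 bases before a RefSeq transcription start of the gene on the plus strand of GRCh38.p14, read 5′ to 3′. Members can have several such starts, and the start with the most matches to the motifs below in these 120 bases was chosen. The match counts of these stretches therefore describe only the letters shown. Capitals mark the CHR core, searched as TTTGAA or TTCGAA on both strands, and CCAAT, searched on both strands so that ATTGG is its reverse complement. The KIF20A stretch is chr5:138178992-138179111, that of CDC20 chr1:43358861-43358980, that of PLK1 chr16:23678769-23678888, that of CCNB2 chr15:59105026-59105145 and that of CDK1 chr10:60778358-60778477.
KIF20A: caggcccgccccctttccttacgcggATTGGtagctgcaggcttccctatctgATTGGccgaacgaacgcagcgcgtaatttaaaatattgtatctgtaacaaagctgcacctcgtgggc
CDC20: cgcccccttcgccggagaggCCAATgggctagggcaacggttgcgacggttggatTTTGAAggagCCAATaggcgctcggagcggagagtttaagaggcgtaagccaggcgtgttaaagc
PLK1: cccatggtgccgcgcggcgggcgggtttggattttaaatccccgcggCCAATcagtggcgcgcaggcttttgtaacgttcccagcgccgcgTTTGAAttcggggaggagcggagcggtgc
CCNB2: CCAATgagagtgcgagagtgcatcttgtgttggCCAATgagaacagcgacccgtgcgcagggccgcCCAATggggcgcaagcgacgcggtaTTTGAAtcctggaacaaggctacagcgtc
CDK1: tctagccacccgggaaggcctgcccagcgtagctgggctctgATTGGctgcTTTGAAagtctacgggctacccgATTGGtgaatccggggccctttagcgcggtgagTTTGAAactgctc
CCNB2 holds 3 CCAAT matches in this stretch and CDK1 holds 2 CHR cores and 2 CCAAT matches. KIF20A holds 2 CCAAT matches and neither form of the CHR core in these 120 bases. Over windows from 250 bases before to 50 after the start, the CHR core was found in 16.4% of all 35116 RefSeq windows and CCAAT in 34.6% of them. Of the 46 windows of members, 32 held the CHR core and 34 held CCAAT. Counted by gene, with a match in any of its windows, 29 of the 36 members with a window held the CHR core and 29 held CCAAT. By the same count 24 held both. No share by gene was computed over all genes. The other 5 members (AURKA, UBE2C, FOXM1, TTK and TPX2) were not matched to a window. A match describes letters, not binding.

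Library totals were 19031094 to 37686975 counts, and 25186538 to 26477754 counts in the vehicle libraries. The astrocytoma cells expressed VIM at a median of 5197 CPM (counts-per-million values of edgeR, on library sizes scaled by TMM) and CD44 at 2652 CPM, whereas the astrocyte markers GFAP, S100B, AQP4 and ALDH1L1 were near 0 in all libraries. Not every astrocyte and glioma marker read was at one of these extremes. SOX9 had a median of 71.3 CPM (36.5 to 109 CPM over the libraries) and NES 6.98 CPM, while OLIG2 stood at 0.0809 CPM. The library names carry a set number, and no extract shares the number of the vehicle libraries. Set and extract therefore cannot be told apart in comparisons with vehicle. Aucklandiae Radix shares a set with Polygalae Radix, Menthae Herba with Saposhnikoviae Radix, Guibi-tang with Saengmaek-san, and Soyo-san with Okbyeongpung-san. In 10 libraries genes with long transcripts had low counts relative to those with short ones. Their slope was below -0.15 log2 units per doubling of the median coding transcript length of a gene. None of the 10 was a vehicle, Polygalae Radix, Aucklandiae Radix, Soyo-san or Guibi-tang high-dose library. They were the Okbyeongpung-san high-dose library, replicate 3 of Menthae Herba at the high dose, replicate 2 of Saposhnikoviae Radix at the high dose and replicates 2 and 3 at its low dose, replicate 1 of Saengmaek-san at each dose, and replicate 2 of Guibi-tang at its medium and low doses. Levels below are the CPM values of edgeR, on library sizes scaled by TMM. Differences between groups are log2 fold changes with their standard error (SE). A gene is called higher or lower where edgeR's quasi-likelihood test gave a Benjamini-Hochberg adjusted p under 0.05 over all 19366 genes.

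At the high dose, most of the 41 genes were lower with Polygalae Radix, Aucklandiae Radix and Guibi-tang, and not with the other 4 replicated extracts. The list was chosen with earlier results of these data known, so the counts describe these 41 genes and not mitotic genes at large. With Polygalae Radix, 28 of the 41 were lower and 0 higher, whereas 25.6% of all genes tested were lower and 22.4% higher. With Aucklandiae Radix, all 41 were lower, against 17.0% of all genes lower and 15.7% higher. With Guibi-tang, 37 of 41 were lower and 0 higher, against 26.6% lower and 23.6% higher among all genes. The median member changed by -0.73 log2 units with Polygalae Radix, -1.67 with Aucklandiae Radix and -1.14 with Guibi-tang, while the medians over all genes were 0.03, -0.02 and 0.03. The members were down by more than 2-fold in 14, 40 and 22 cases for Polygalae Radix, Aucklandiae Radix and Guibi-tang. Every extract library lay below every vehicle library for 31 members with Polygalae Radix (35.6% of all genes did so), for 41 with Aucklandiae Radix (32.6%) and for 41 with Guibi-tang (34.7%).

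Summed over the 41 genes, the module took 1725 and 1848 CPM in the Aucklandiae Radix libraries, 3111 and 3301 CPM in the Polygalae Radix libraries and 2355 to 2470 CPM in the Guibi-tang libraries, against 5566 to 5840 CPM in vehicle. The mitochondrial share of counts also differed between groups. It was 19.2% and 11.7% in the Polygalae Radix libraries, 7.15% and 4.09% in the Aucklandiae Radix libraries and 7.82% to 9.39% in the Guibi-tang libraries, against 10.1% to 10.3% in vehicle. Its part in these results was not tested.

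**Figure D1:**
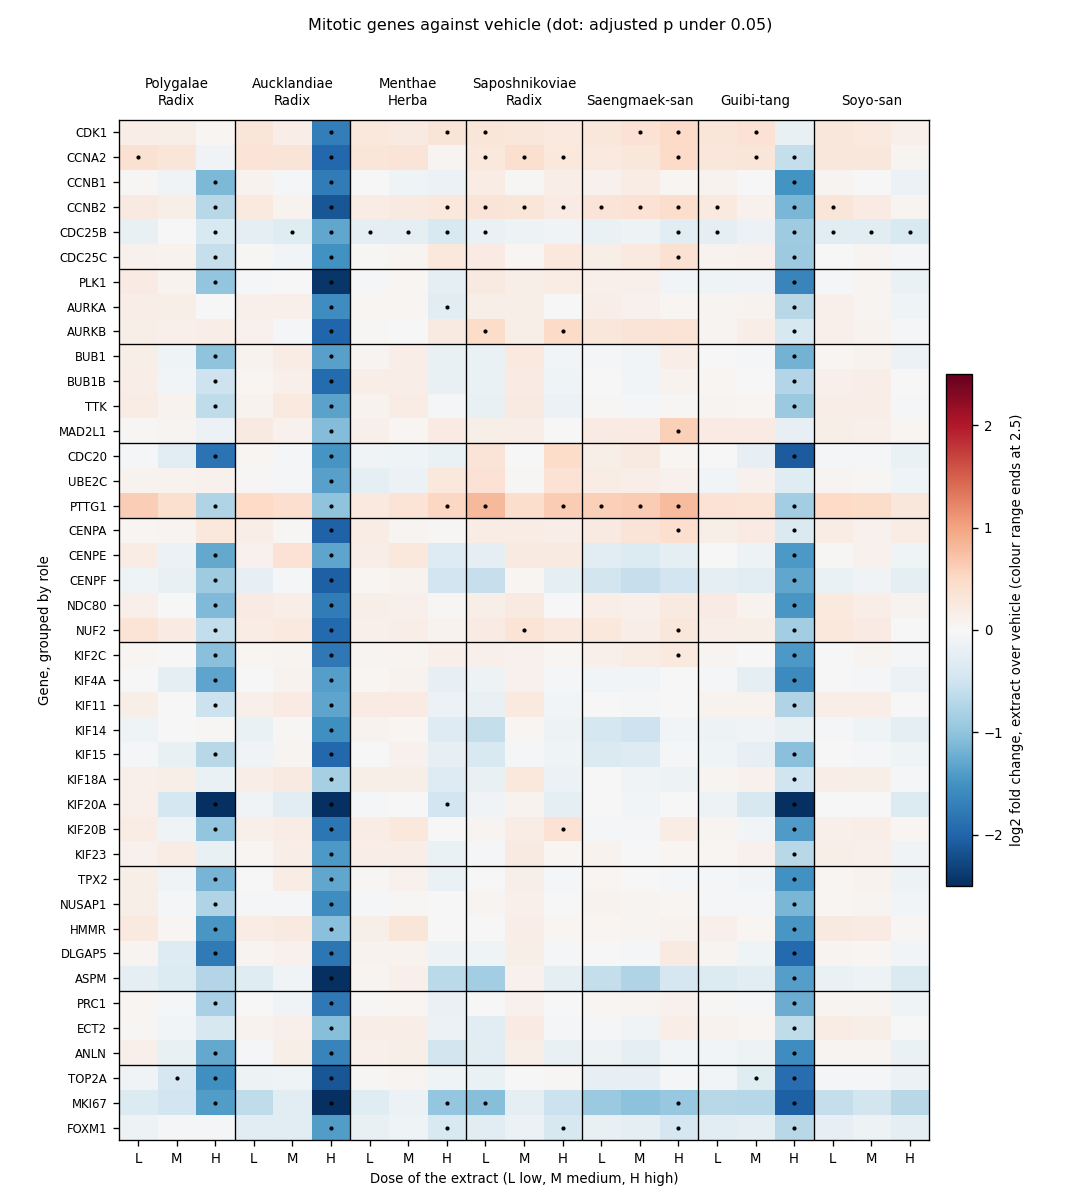
Log2 fold change over vehicle (colour, ending at 2.5 in either direction) of the 41 genes, grouped by role down the page, for 7 extracts at the low, medium and high dose; dots mark an edgeR adjusted p under 0.05. The high doses of Polygalae Radix, Aucklandiae Radix and Guibi-tang hold 28, 41 and 37 genes called lower, and the low and medium doses hold at most 7 calls each.

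The motors of the spindle held the most strongly lowered gene of the module. KIF20A (ENSG00000112984, GRCh38 chromosome 5, 138178719 to 138187715), the kinesin that carries Aurora B to the central spindle for cytokinesis, had 18.9 and 18.9 CPM with Polygalae Radix, 11.5 and 14.0 CPM with Aucklandiae Radix and 9.77, 9.76 and 10.9 CPM with Guibi-tang, against 138, 150.5 and 139.6 CPM in vehicle. All 7 treated libraries lay far below the vehicle libraries, without overlap. KIF20A changed by -2.92 log2 units (SE 0.17, edgeR adjusted p = 9.97e-18) with Polygalae Radix, by -3.48 (SE 0.18, adjusted p = 5.68e-19) with Aucklandiae Radix and by -3.81 (SE 0.15, adjusted p = 4.20e-23) with Guibi-tang. The gene overlaps CDC23 and BRD8 on the other strand, and whether the counting used strand is not given in the sources used here.

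The other kinesins moved less. KIF20B, a related motor needed late in cytokinesis, had 60.4 and 65.1 CPM with Polygalae Radix, 35.6 and 35.5 CPM with Aucklandiae Radix and 49.1, 44.2 and 46.3 CPM with Guibi-tang, against 113, 126 and 134 CPM in vehicle. It changed by -0.99, -1.81 and -1.42 log2 units in the 3 extracts, with adjusted p of 1.22e-10, 4.48e-17 and 1.20e-16. KIF2C, which takes apart microtubules at centromeres, and KIF4A, a motor on chromosome arms and the central spindle, were also lower with all 3: KIF2C changed by -1.04, -1.79 and -1.44, and KIF4A by -1.31, -1.37 and -1.60. KIF4A shares sequence with its retrocopy KIF4B, so its counts are uncertain. KIF11, which pushes the spindle poles apart, and KIF15, which backs it up, changed by -1.32 and -1.97 with Aucklandiae Radix and by -0.74 and -1.05 with Guibi-tang. KIF14, a cytokinesis motor, was lower with Aucklandiae Radix at -1.53, but stood at 0.034 (adjusted p = 0.936) with Polygalae Radix and -0.18 (adjusted p = 0.569) with Guibi-tang. KIF18A, which damps chromosome movement at metaphase, and KIF23, a subunit of centralspindlin, did not pass with Polygalae Radix either, at -0.17 and -0.18.

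Set against the checkpoint and cyclin genes, the kinesins had medians of a similar size. With Polygalae Radix, 6 of 9 kinesins were lower with a median of -0.70, 3 of 4 checkpoint genes with a median of -0.58, and 4 of 6 cyclin, CDK1 and CDC25 genes with a median of -0.48. With Aucklandiae Radix, all 9 kinesins, all 4 checkpoint genes and all 6 cyclin, CDK1 and CDC25 genes were lower, with medians of -1.53, -1.34 and -1.74. With Guibi-tang, 8 of 9, 3 of 4 and 5 of 6 were lower, with medians of -1.05, -0.83 and -0.90. The range within the kinesins, -2.92 to 0.034 with Polygalae Radix and -3.81 to -0.18 with Guibi-tang, was wider than the spread of these medians. The difference between the roles was not tested.

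**Figure D2:**
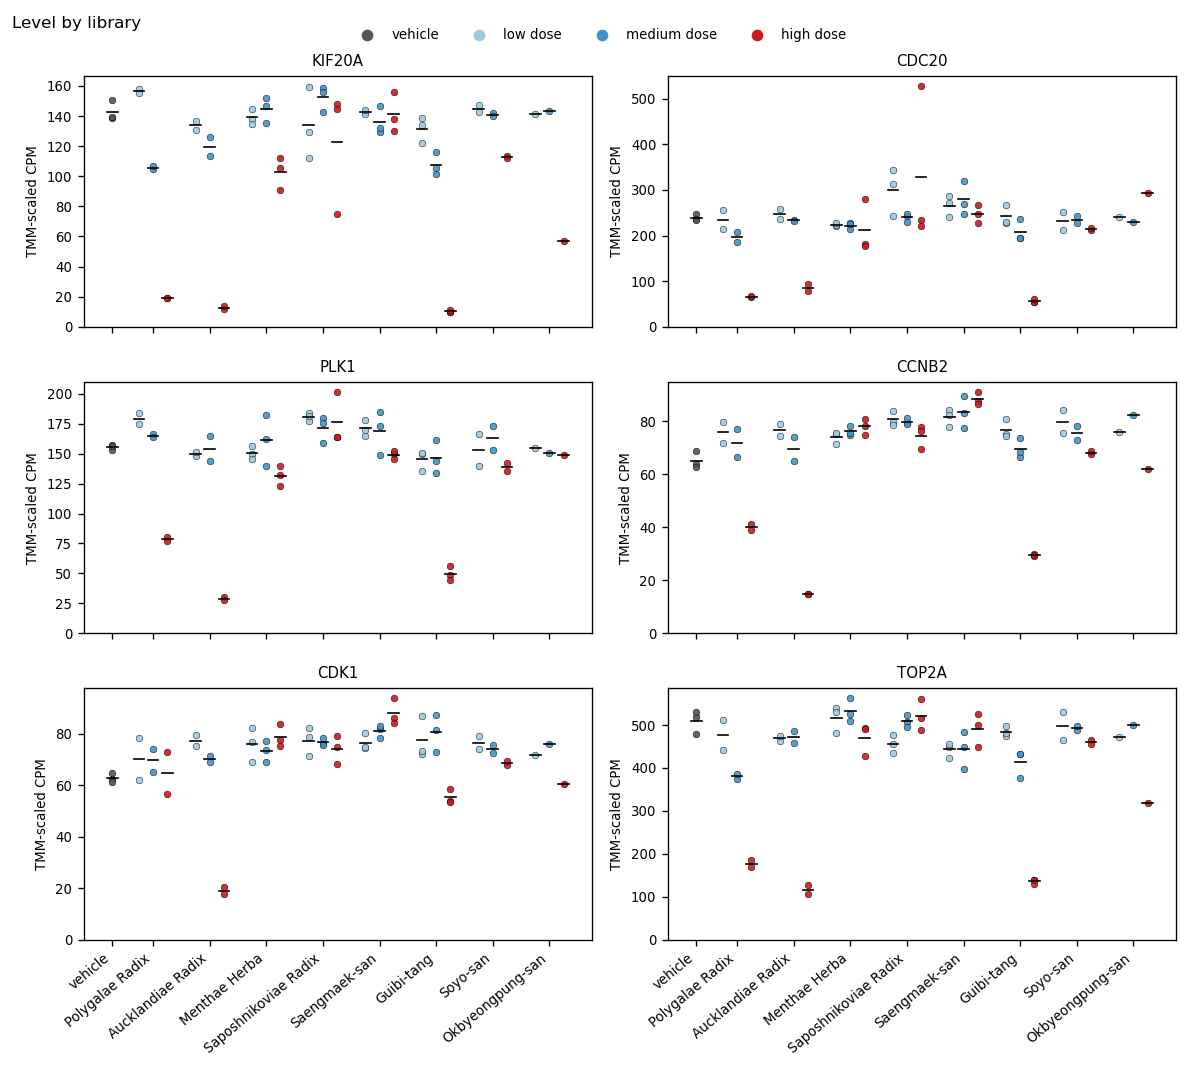
CPM on TMM-scaled library sizes of KIF20A, CDC20, PLK1, CCNB2, CDK1 and TOP2A in every library, in vehicle and at the low, medium and high dose of each extract; points are libraries and bars are group means. The high-dose points of Aucklandiae Radix lie below the vehicle points in all 6 panels, and those of Polygalae Radix and Guibi-tang do so except for Polygalae Radix in the CDK1 panel.

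Among the genes that start mitosis, the extracts separated. CDK1 (ENSG00000170312, GRCh38 chromosome 10, 60778331 to 60794852), the kinase that drives entry, had 17.9 and 20.3 CPM with Aucklandiae Radix, 56.7 and 72.9 CPM with Polygalae Radix and 54.0, 58.7 and 53.4 CPM with Guibi-tang, against 64.8, 62.5 and 61.4 CPM in vehicle. The Aucklandiae Radix libraries were far below vehicle, the Guibi-tang libraries just below it, and the 2 Polygalae Radix libraries stood on either side of it. CDK1 fell by 1.72 log2 units with Aucklandiae Radix (SE 0.11, edgeR adjusted p = 4.28e-16), whereas the estimates were 0.042 with Polygalae Radix (SE 0.10, adjusted p = 0.763) and -0.18 with Guibi-tang (SE 0.09, adjusted p = 0.0885). Without replicate 3 of Polygalae Radix its CDK1 estimate was -0.16.

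The cyclins did not all follow CDK1. CCNB2, a B-type cyclin partner of CDK1, had 14.9 and 14.8 CPM with Aucklandiae Radix, 39.0 and 41.3 CPM with Polygalae Radix and 29.2, 29.9 and 29.5 CPM with Guibi-tang, against 68.6, 63.6 and 62.9 CPM in vehicle, with no overlap. It changed by -2.13 (adjusted p = 1.41e-22), -0.69 (adjusted p = 4.66e-10) and -1.14 log2 units (adjusted p = 1.23e-17) with Aucklandiae Radix, Polygalae Radix and Guibi-tang. CCNB1, the main mitotic cyclin, was lower with all 3 as well, at -1.75, -1.12 and -1.49. CCNA2, the cyclin of S phase and G2, was lower with Aucklandiae Radix (-1.96) and Guibi-tang (-0.59), and its estimate with Polygalae Radix was -0.093 (adjusted p = 0.478). CDC25B, a phosphatase that switches CDK1 on, had 128 and 138 CPM with Aucklandiae Radix, 270.3 and 234 CPM with Polygalae Radix and 173, 173 and 183 CPM with Guibi-tang, against 330.3, 325 and 329 CPM in vehicle. It was lower with each, at -1.31, -0.38 and -0.90 log2 units, and so was CDC25C, its relative, at -1.52, -0.57 and -0.90.

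The 3 mitotic kinases showed a similar split. PLK1, which acts from mitotic entry to cytokinesis, had 30.2 and 27.6 CPM with Aucklandiae Radix, 80.6 and 77.3 CPM with Polygalae Radix and 49.0, 44.4 and 55.7 CPM with Guibi-tang, against 157, 154 and 156 CPM in vehicle. It changed by -2.43 log2 units with Aucklandiae Radix (SE 0.12, edgeR adjusted p = 9.58e-20), by -0.98 with Polygalae Radix (SE 0.11, adjusted p = 4.86e-10) and by -1.65 with Guibi-tang (SE 0.10, adjusted p = 6.72e-18). AURKA, the centrosomal Aurora kinase, had 42.2 and 44.2 CPM with Aucklandiae Radix, 125 and 129 CPM with Polygalae Radix and 77.6, 73.7 and 82.4 CPM with Guibi-tang, against 127, 124 and 129 CPM in vehicle. It changed by -1.55 with Aucklandiae Radix and -0.70 with Guibi-tang, and its Polygalae Radix libraries lay among the vehicle libraries (adjusted p = 0.986). AURKB, the kinase of the chromosomal passenger complex, changed by -1.98 with Aucklandiae Radix and by -0.40 (adjusted p = 0.0349) with Guibi-tang, and stood at 0.16 (adjusted p = 0.49) with Polygalae Radix. With the length slope of each library as a covariate, AURKB was called higher with Polygalae Radix, at 0.35 (edgeR adjusted p = 4.82e-06).

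Of the checkpoint genes, BUB1, BUB1B and TTK, all kinases or kinase-like proteins of unattached kinetochores, were lower with the 3 extracts. TTK, the kinase that starts checkpoint signalling, had 27.3 and 29.4 CPM with Aucklandiae Radix, 42.4 and 49.3 CPM with Polygalae Radix and 37.9, 36.3 and 38.8 CPM with Guibi-tang, against 64.6, 75.6 and 74.1 CPM in vehicle. It changed by -1.33 (adjusted p = 1.03e-05), -0.64 (adjusted p = 0.0149) and -0.92 log2 units (adjusted p = 0.000118) with Aucklandiae Radix, Polygalae Radix and Guibi-tang. BUB1 changed by -1.35, -1.01 and -1.18, and BUB1B by -1.93, -0.52 and -0.74. MAD2L1, the protein that holds CDC20, had 20.3 and 21.4 CPM with Aucklandiae Radix, 34.8 and 44.8 CPM with Polygalae Radix and 38.0, 38.9 and 37.4 CPM with Guibi-tang, against 43.1, 46.7 and 42.6 CPM in vehicle. It fell by 1.08 with Aucklandiae Radix and did not pass with Polygalae Radix (-0.15, adjusted p = 0.347) or Guibi-tang (-0.21, adjusted p = 0.119).

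The gene that ends the checkpoint was among those lowered most with Polygalae Radix and Guibi-tang. CDC20 (ENSG00000117399, GRCh38 chromosome 1, 43358955 to 43363203), the activator of the anaphase-promoting complex, had 64.6 and 67.8 CPM with Polygalae Radix, 78.0 and 93.1 CPM with Aucklandiae Radix and 54.8, 53.8 and 61.6 CPM with Guibi-tang, against 246, 237 and 234 CPM in vehicle. All 7 treated libraries were below all 3 vehicle libraries. CDC20 changed by -1.85 log2 units with Polygalae Radix (SE 0.22, edgeR adjusted p = 3.26e-09), by -1.48 with Aucklandiae Radix (SE 0.22, adjusted p = 6.11e-07) and by -2.07 with Guibi-tang (SE 0.19, adjusted p = 4.66e-12). PTTG1, securin, had 65.3 and 84.2 CPM with Polygalae Radix, 60.1 and 64.4 CPM with Aucklandiae Radix and 72.8, 62.0 and 71.4 CPM with Guibi-tang, against 128, 132 and 117 CPM in vehicle, and was lower in each. Near-identical copies of PTTG1 make its counts uncertain. UBE2C, the conjugating enzyme of the complex, fell by 1.36 with Aucklandiae Radix and did not pass with Polygalae Radix (0.10, adjusted p = 0.716) or Guibi-tang (-0.30, adjusted p = 0.171).

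At the kinetochore, CENPF, a large protein that recruits motors there, had 165 and 177 CPM with Polygalae Radix, 73.1 and 81.1 CPM with Aucklandiae Radix and 129.7, 126 and 129.8 CPM with Guibi-tang, against 297, 326 and 327 CPM in vehicle. It changed by -0.89 (adjusted p = 0.0102), -2.04 (adjusted p = 1.09e-06) and -1.30 log2 units (adjusted p = 4.44e-05) with Polygalae Radix, Aucklandiae Radix and Guibi-tang. The microtubule-binding partners NDC80 and NUF2 were also lower in each, NDC80 at -1.10, -1.75 and -1.46 and NUF2 at -0.62, -1.95 and -0.87. CENPE, the kinetochore motor, changed by -1.29, -1.32 and -1.43. CENPA, the histone H3 variant that marks the centromere, changed by -2.01 with Aucklandiae Radix and by -0.36 (adjusted p = 0.026) with Guibi-tang. With Polygalae Radix both CENPA values, 22.3 and 22.5 CPM, stood above those of vehicle, 19.4, 18.8 and 18.2 CPM, without passing (0.25, adjusted p = 0.171).

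The 5 spindle assembly factors were lower with each of the 3 extracts, except that ASPM missed the threshold with Polygalae Radix. DLGAP5, which stabilises kinetochore fibres, had 28.6 and 32.2 CPM with Polygalae Radix, 26.8 and 31.9 CPM with Aucklandiae Radix and 27.7, 25.9 and 26.7 CPM with Guibi-tang, against 102, 103 and 105 CPM in vehicle. Its changes were close to each other in the 3 extracts, at -1.76 (SE 0.14, edgeR adjusted p = 2.40e-13), -1.82 (SE 0.15, adjusted p = 4.35e-13) and -1.95 log2 units (SE 0.13, adjusted p = 1.84e-16). TPX2, the activator of Aurora A on the spindle, had 124 and 134 CPM with Polygalae Radix, 115 and 118 CPM with Aucklandiae Radix and 105, 95.6 and 102 CPM with Guibi-tang, against 284, 294 and 285 CPM in vehicle, again without overlap. HMMR, a spindle protein that also binds hyaluronan, changed by -1.45, -1.05 and -1.46, and NUSAP1, a microtubule bundler, by -0.75, -1.55 and -1.15. ASPM, which focuses the spindle poles, had 81.8 and 103 CPM with Polygalae Radix, 21.1 and 25.1 CPM with Aucklandiae Radix and 63.6, 54.0 and 61.0 CPM with Guibi-tang, against 135, 164 and 163 CPM in vehicle. It changed by -2.74 (adjusted p = 1.56e-05) with Aucklandiae Radix and -1.37 (adjusted p = 0.00299) with Guibi-tang, and stood at -0.73 (SE 0.43, adjusted p = 0.164) with Polygalae Radix, although no Polygalae Radix library reached a vehicle library. In the fit with the length slope as a covariate, its Polygalae Radix estimate was -1.25 (edgeR adjusted p = 2.61e-15). That fit called 33 members lower and 2 higher with Polygalae Radix, in place of 28 and 0, where it called 62.1% of all genes.

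Of the genes of cell division, ANLN, the scaffold of the contractile ring, had 196 and 227 CPM with Polygalae Radix, 162 and 162 CPM with Aucklandiae Radix and 182, 171 and 177 CPM with Guibi-tang, against 480.2, 524 and 541 CPM in vehicle. PRC1, which crosslinks the central spindle, changed by -0.81, -1.80 and -1.24 log2 units with Polygalae Radix, Aucklandiae Radix and Guibi-tang. ECT2, the exchange factor that activates RhoA at the cleavage furrow, changed by -1.07 with Aucklandiae Radix and -0.63 with Guibi-tang, and stood at -0.41 (edgeR adjusted p = 0.0921) with Polygalae Radix.

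TOP2A and MKI67, both in wide use as proliferation markers, were lower with the 3 extracts, and FOXM1 with only 2 of them. TOP2A (ENSG00000131747, GRCh38 chromosome 17, 40388516 to 40417950), the topoisomerase that untangles sister chromatids, had 169 and 185 CPM with Polygalae Radix, 105 and 126 CPM with Aucklandiae Radix and 138, 139 and 129.8 CPM with Guibi-tang, against 480.1, 519 and 531 CPM in vehicle. It changed by -1.53 log2 units (SE 0.10, edgeR adjusted p = 9.37e-17) with Polygalae Radix, -2.14 (SE 0.10, adjusted p = 4.21e-20) with Aucklandiae Radix and -1.91 (SE 0.084, adjusted p = 1.19e-21) with Guibi-tang. MKI67, which coats mitotic chromosomes, had 144 and 156 CPM with Polygalae Radix, 63.2 and 65.0 CPM with Aucklandiae Radix and 100.2, 87.5 and 97.1 CPM with Guibi-tang, against 351, 406 and 419.9 CPM in vehicle. Its standard errors, 0.33 to 0.40, were among the widest of the module. FOXM1, the transcription factor that activates many of the other members, had 224 and 201 CPM with Polygalae Radix, 87.9 and 78.6 CPM with Aucklandiae Radix and 136, 129 and 143 CPM with Guibi-tang, against 216, 216 and 224 CPM in vehicle. It changed by -1.39 (adjusted p = 2.40e-09) with Aucklandiae Radix and -0.69 (adjusted p = 3.68e-05) with Guibi-tang, whereas its Polygalae Radix values lay around those of vehicle (-0.04, adjusted p = 0.852).

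The 13 members not called with Polygalae Radix were CDK1, CCNA2, AURKA, AURKB, MAD2L1, UBE2C, CENPA, KIF14, KIF18A, KIF23, ASPM, ECT2 and FOXM1. The 4 not called with Guibi-tang (CDK1, MAD2L1, UBE2C and KIF14) are all among these 13, and both comparisons use the same 3 vehicle libraries. Without replicate 2 of Polygalae Radix at the high dose, BUB1B, TTK, PTTG1, CENPF and KIF11 were no longer called, and 23 calls were made. BUB1B also missed the threshold without replicate 3 of the extract or without vehicle replicate 2 or 3. With Guibi-tang, AURKB, CENPA and KIF18A missed the threshold in some of the fits that left out 1 library, which made 34 to 36 calls. The 41 calls of Aucklandiae Radix were made in each such fit. Of the members with a promoter window, 21 of the 26 lower with Polygalae Radix held the CHR core and so did 8 of the 10 not called. CCAAT was found in 19 of the 26 and in 10 of the 10.

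Whether the extracts differ from each other can be tested without the vehicle libraries for those that share a library set. Aucklandiae Radix at 160 µg/mL against Polygalae Radix at 30 µg/mL gave 32 members lower and 1 higher, where 23.7% of all genes were lower and 25.4% higher. The median member differed by -0.92 log2 units. The 5 largest differences were those of CENPA, AURKB, ASPM, CCNA2 and CDK1, all among the members not called with Polygalae Radix against vehicle. CENPA, the centromeric histone, was lower with Aucklandiae Radix at -2.27 (SE 0.18, edgeR adjusted p = 1.50e-13), AURKB at -2.14, CCNA2 at -1.87 and CDK1 at -1.76 (SE 0.12, adjusted p = 3.50e-16). ASPM with Aucklandiae Radix was at 25.0% of its Polygalae Radix level (SE 0.49 on the log2 scale, adjusted p = 0.000733). HMMR went the other way, with 44.9 and 45.5 CPM with Aucklandiae Radix against 33.5 and 35.2 CPM with Polygalae Radix (log2 fold change 0.40, SE 0.12, edgeR adjusted p = 0.00466). The 8 members not called were BUB1, CDC20, PTTG1, CENPE, KIF4A, TPX2, DLGAP5 and ANLN. For CDC20 the difference was 0.37 (SE 0.23, adjusted p = 0.178), and for DLGAP5 -0.051 (SE 0.15, adjusted p = 0.809). The 2 concentrations differ, so these values compare treatments and not potencies.

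Between the 2 formulas of another set, both at 500 µg/mL, Guibi-tang had 37 members lower than Saengmaek-san and 0 higher, where 26.9% of all genes were lower. The median member differed by -1.14. KIF20A had 9.77, 9.76 and 10.9 CPM with Guibi-tang against 130.0, 156 and 138 CPM with Saengmaek-san (log2 fold change -3.80, SE 0.15, edgeR adjusted p = 5.50e-23). DLGAP5 differed by -2.17, CDC20 by -2.12, TOP2A by -1.86 and PTTG1 by -1.66 log2 units. CDK1, which had not passed against vehicle, had 54.0, 58.7 and 53.4 CPM with Guibi-tang against 86.2, 84.3 and 93.8 CPM with Saengmaek-san (log2 fold change -0.67, SE 0.09, edgeR adjusted p = 5.38e-08). The 4 members not called were UBE2C, KIF14, KIF18A and FOXM1. The recipe of Guibi-tang includes both Polygalae Radix and Aucklandiae Radix; their sets and concentrations differ from it, so no comparison was made with either.

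**Figure D3:**
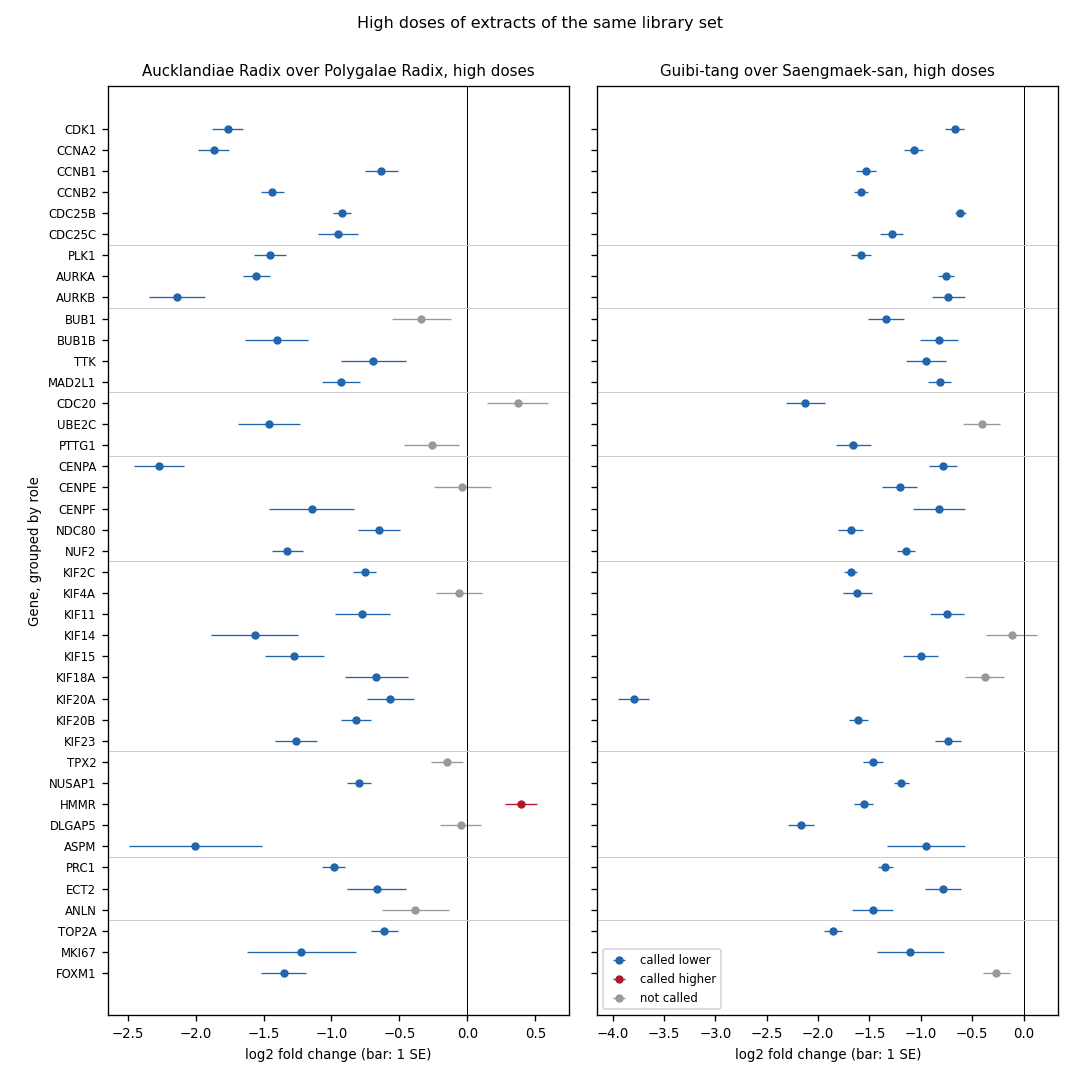
Log2 fold change (points, with 1 SE either way) of the 41 genes for Aucklandiae Radix over Polygalae Radix and for Guibi-tang over Saengmaek-san, all at the high dose, coloured by whether the gene was called lower, higher or neither. In the first panel 32 genes are called lower and HMMR higher; in the second 37 are called lower, with KIF20A farthest from 0.

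The 4 remaining replicated extracts gave few calls at the high dose, in both directions. With Menthae Herba 5 members were lower and 3 higher, where 11.7% and 11.1% of all genes were, and the median member stood at -0.15. With Saposhnikoviae Radix 1 was lower and 5 higher (4.05% and 8.61% of all genes), with a median of 0.01. With Saengmaek-san 3 were lower and 9 higher (8.54% and 8.87%), with a median of 0.05. With Soyo-san 1 was lower and 0 higher (1.29% and 1.62%), with a median of -0.09. For Menthae Herba, Saposhnikoviae Radix and Soyo-san the shares of members called were thus near those of all genes. With the length slope as a covariate, 7 members were lower and 8 higher with Menthae Herba, 0 and 12 with Saposhnikoviae Radix, 4 and 22 with Saengmaek-san and 5 and 0 with Soyo-san. That fit called 37.1%, 11.4%, 35.6% and 15.2% of all genes in these 4 comparisons.

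With Saengmaek-san, 4 of the 6 cyclin, CDK1 and CDC25 genes were higher (CDK1, CCNA2, CCNB2 and CDC25C) and 1 was lower (CDC25B). CCNB1 was not called, with 192, 180.4 and 207 CPM with Saengmaek-san against 191, 186 and 183 CPM in vehicle. CDK1 had 86.2, 84.3 and 93.8 CPM with Saengmaek-san against 64.8, 62.5 and 61.4 CPM in vehicle (log2 fold change 0.49, SE 0.09, edgeR adjusted p = 0.000151). CCNB2 had 87.6, 86.3 and 90.9 CPM against 68.6, 63.6 and 62.9 CPM in vehicle (log2 fold change 0.44, SE 0.066, edgeR adjusted p = 7.09e-06). In both genes all 3 treated libraries were above all 3 vehicle libraries. MAD2L1, the checkpoint inhibitor of CDC20, had 66.1, 62.8 and 72.3 CPM with Saengmaek-san against 43.1, 46.7 and 42.6 CPM in vehicle (log2 fold change 0.60, SE 0.11, edgeR adjusted p = 0.000164), and PTTG1 rose by 0.79 (edgeR adjusted p = 0.000755). CCNA2, CDC25C, CENPA, NUF2 and KIF2C were the other genes called higher, at 0.24 to 0.48. CDC25B changed by -0.28 (adjusted p = 0.000302), MKI67 by -0.94 (adjusted p = 0.0385) and FOXM1 by -0.42 (adjusted p = 0.0235). Without vehicle replicate 2, or without replicate 3 of Saengmaek-san at the high dose, 7 calls were made in place of 12.

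PTTG1 and CCNB2 were also higher with Menthae Herba and Saposhnikoviae Radix. PTTG1 had 147, 181 and 214 CPM with Menthae Herba and 163, 263 and 162 CPM with Saposhnikoviae Radix, against 128, 132 and 117 CPM in vehicle, so no treated library overlapped the vehicle libraries. It rose by 0.52 (edgeR adjusted p = 0.0182) with Menthae Herba and 0.64 (adjusted p = 0.0123) with Saposhnikoviae Radix. With the length slope as a covariate the estimates were 0.22 (edgeR adjusted p = 0.129) with Menthae Herba, no longer called, and 0.33 (adjusted p = 0.0455) with Saposhnikoviae Radix. The top value of PTTG1 came from a library with a length slope below -0.15 in both extracts, and without it the estimate for Saposhnikoviae Radix was 0.36 (edgeR adjusted p = 0.259). CCNB2 rose by 0.26 and 0.20 with Menthae Herba and Saposhnikoviae Radix, CDK1 by 0.33 with Menthae Herba, and CCNA2 by 0.26 with Saposhnikoviae Radix. At the low doses of Saposhnikoviae Radix, Guibi-tang and Soyo-san, PTTG1 averaged 219, 161 and 178 CPM, against 126 CPM in vehicle. CCNB2 averaged 80.8, 76.8 and 79.7 CPM there, against 65.0 CPM in vehicle. High against low dose, neither gene was called with Menthae Herba, Saposhnikoviae Radix or Saengmaek-san. An offset of the shared vehicle set was not tested for PTTG1 or CCNB2. In Saposhnikoviae Radix, AURKB had 47.3, 89.6 and 42.5 CPM against 46.1, 43.3 and 39.1 CPM in vehicle; without replicate 2 of the extract its estimate was 0.06 (edgeR adjusted p = 0.902). KIF20B rose by 0.36 and FOXM1 fell by 0.41 in Saposhnikoviae Radix. Neither passed without that library (0.22, edgeR adjusted p = 0.179, and -0.15, adjusted p = 0.490). With all 10 libraries of low slope left out and the spread estimated anew, KIF20B was called at 0.23 (edgeR adjusted p = 0.0198). FOXM1 was not called in that fit (-0.15, adjusted p = 0.177). With Saposhnikoviae Radix 1 call was made in place of 6 without its replicate 2 or without vehicle replicate 3, and 2 were made without vehicle replicate 1 or 2.

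CDC25B was the member called lower most widely, with 6 of the 7 replicated extracts at the high dose. It had 243, 253 and 257 CPM with Menthae Herba, 268, 263 and 278 CPM with Saengmaek-san and 245 and 260.2 CPM with Soyo-san, against 330.3, 325 and 329 CPM in vehicle. The treated values stood apart from the narrow vehicle range in all 3 extracts. It changed by -0.39 (edgeR adjusted p = 1.08e-06), -0.28 (adjusted p = 0.000302) and -0.38 log2 units (adjusted p = 0.000163) with Menthae Herba, Saengmaek-san and Soyo-san. Low-dose means of CDC25B also lay below the vehicle mean of 328 CPM, at 269 CPM with Soyo-san, 282 CPM with Guibi-tang and 293 CPM with Saposhnikoviae Radix. High against low dose, CDC25B was called lower with Menthae Herba, and not with Saengmaek-san or Soyo-san. An offset of the shared vehicle set was not tested. With Menthae Herba, AURKA changed by -0.26, KIF20A by -0.47, FOXM1 by -0.37 and MKI67 by -0.97. Without replicate 3 of Menthae Herba at the high dose, which has a length slope below -0.15, 3 calls were made in place of 8. In that fit KIF20A stood at -0.39 (edgeR adjusted p = 0.072) and MKI67 at -0.62 (adjusted p = 0.235). With all 10 libraries of low slope left out and the spread estimated anew, both were called. KIF20A was then at -0.40 (edgeR adjusted p = 2.70e-05) and MKI67 at -0.63 (adjusted p = 0.00614). Without vehicle replicate 3, 4 calls were made. Within the set, Menthae Herba against Saposhnikoviae Radix at 500 µg/mL gave 7 members lower and 0 higher, where 8.06% of all genes were lower; they were CCNB1, CDC25B, PLK1, AURKA, CDC20, CENPE and KIF20B. Without replicate 2 of Saposhnikoviae Radix at the high dose, 17 were called.

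Transcript length moved with the members in some libraries. Length here is that of the longest coding transcript, whereas the library slope used the median one. By the median, TOP2A (579 bases) and ANLN (757 bases) are short. In the 10 libraries with a length slope below -0.15, Pearson's r between the log2 difference from the vehicle mean and the log2 length of the longest coding transcript ran from -0.89 to -0.69 over the 41 members, which share a library and hence its composition. The relation was not confined to these 10. In the other libraries r lay between -0.84 (replicate 3 of Saengmaek-san at the medium dose) and 0.75 (vehicle replicate 3), with -0.82 in vehicle replicate 1 and 0.29 in vehicle replicate 2. In the high-dose Polygalae Radix, Aucklandiae Radix and Guibi-tang libraries it ran from -0.26 to -0.19. The long members are MKI67, ASPM, CENPF, CENPE, KIF14, KIF20B, TOP2A, MAD2L1, KIF11, KIF15 and ANLN, the 11 with a coding transcript over 4500 bases. In replicate 3 of Menthae Herba at the high dose, these 11 averaged -0.90 and the 30 shorter members -0.13 log2 units from the vehicle mean. In the 2 Aucklandiae Radix libraries the long members averaged -1.88 and -1.77 and the short ones -1.68 and -1.57. The lower values of Aucklandiae Radix were thus of similar size in long and short members.

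Okbyeongpung-san had 1 library a dose, so its values carry no test. At the high dose 11 members were more than 2-fold lower than the vehicle mean on the log2 CPM scale and 0 more than 2-fold higher, where 15.1% and 14.5% of all genes were. The median member stood at -0.65 and the median gene at 0.02. MKI67 stood at -2.36, ASPM at -2.19, CENPF at -1.55, KIF14 at -1.49 and KIF20A at -1.32, whereas PTTG1 stood at 0.98, UBE2C at 0.67 and CDC20 at 0.30. This is a library with a length slope of -0.40: its 11 long members averaged -1.15 and its 30 shorter members -0.40, and the part of length in these values was not tested. At the medium and low doses 0 members were beyond 2-fold either way, where 2.33% and 2.10% of all genes were lower and 1.70% and 1.39% higher.

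**Figure D4:**
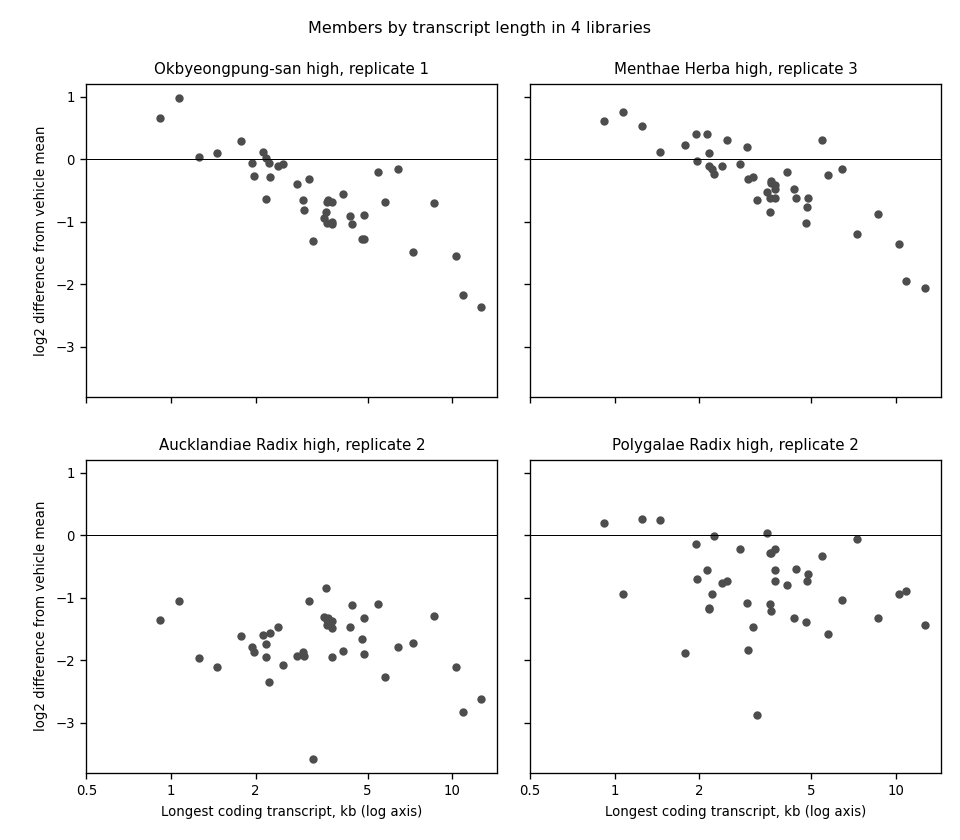
Log2 difference from the vehicle mean of each of the 41 genes against the length of its longest coding transcript (kb, log axis) in 4 high-dose libraries. The points slope down with length in the Okbyeongpung-san library and in replicate 3 of Menthae Herba (r = -0.83 and -0.85), and less so in the Aucklandiae Radix and Polygalae Radix libraries, where r lies between -0.26 and -0.19.

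The falls described so far were those of the highest dose. In vehicle KIF20A had 138, 150.5 and 139.6 CPM. With Polygalae Radix it had 158 and 156 CPM at 1.2 µg/mL, 105 and 107 CPM at 6 µg/mL and 18.9 and 18.9 CPM at 30 µg/mL. With Aucklandiae Radix it had 131 and 137 CPM at 6.4 µg/mL, 126 and 113 CPM at 32 µg/mL and 11.5 and 14.0 CPM at 160 µg/mL. Only the last step of each series left the vehicle range far behind. With Guibi-tang KIF20A had 134, 122 and 139 CPM at 20 µg/mL, 116, 101 and 105 CPM at 100 µg/mL and 9.77, 9.76 and 10.9 CPM at 500 µg/mL. At the medium dose its estimates were -0.44 (edgeR adjusted p = 0.099) with Polygalae Radix and -0.41 (adjusted p = 0.0555) with Guibi-tang. TOP2A was the member that was lower at the medium dose of Polygalae Radix, at -0.42 (adjusted p = 0.00303), and of Guibi-tang, at -0.30 (adjusted p = 0.0162).

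At the medium doses, calls were few. With Polygalae Radix TOP2A alone was called (4.40% of all genes called), and with Aucklandiae Radix (4.18%), Menthae Herba (0.997%) and Soyo-san (0.238%) it was CDC25B alone, lower in each. With Saposhnikoviae Radix CCNA2, CCNB2 and NUF2 were higher (1.00%), and with Saengmaek-san CDK1, CCNB2 and PTTG1 (4.36%). With Guibi-tang CDK1 and CCNA2 were higher and TOP2A lower (6.77%). CDK1 and its partner CCNA2 averaged 80.6 and 95.1 CPM at the medium dose of Guibi-tang, against 62.9 and 77.1 CPM in vehicle. At its low dose the means were 77.4 and 94.0 CPM. Across all extracts, medium-dose means ran from 69.6 to 81.0 CPM for CDK1 and from 94.0 to 101.4 CPM for CCNA2. All lay above the mean of the shared vehicle libraries, so these values do not set Guibi-tang or its medium dose apart. Medians over the 41 members lay between -0.02 and 0.14 at this dose. Leaving out any 1 library removed the call of Menthae Herba and that of Soyo-san, and left 0 to 1 calls with Saposhnikoviae Radix and 0 to 2 with Guibi-tang. TOP2A alone was called with Polygalae Radix in the complete fit, and 1 call was made there in each fit that left out a library.

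At the low doses, CCNB2 and CDC25B were called most often, each with 4 extracts. CCNB2, the B-type cyclin, was higher, and CDC25B, the phosphatase, was lower. With Saposhnikoviae Radix CDK1, CCNA2, CCNB2, AURKB and PTTG1 were higher and CDC25B and MKI67 lower, where 17.0% of all genes were called. Replicates 2 and 3 of that group have a length slope below -0.15, and without them 1 call was made; without replicate 1, 15 were made. With Saengmaek-san CCNB2 and PTTG1 were higher (4.02% of all genes called), and with Guibi-tang (2.46%) and Soyo-san (1.52%) CCNB2 was higher and CDC25B lower. With Polygalae Radix CCNA2 was higher (1.11%), and with Menthae Herba CDC25B lower (0.496%). With Aucklandiae Radix edgeR called 0 of 41 (0.728% of all genes), although 5 members had an unadjusted p under 0.05 and DESeq2 called 3. The calls of Polygalae Radix, Menthae Herba and Guibi-tang at this dose were lost when any 1 library was left out. All 7 comparisons share the vehicle libraries, so calls that recur across extracts are not independent of each other.

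The high dose set against the low dose of the same extract avoids the vehicle libraries and stays within a set. Polygalae Radix had 29 members lower at the high dose (25.2% of all genes lower), Aucklandiae Radix 41 (13.4%) and Guibi-tang 39 (27.4%), with 0 higher in each, and medians of -0.86, -1.68 and -1.07. KIF20A changed by -3.05, -3.39 and -3.69 log2 units, and CDC20 by -1.83, -1.53 and -2.09. DLGAP5 changed by -1.84, -1.89 and -2.02, and TOP2A by -1.43, -2.02 and -1.84. These sizes differ little from those against vehicle. CDK1 changed by -2.02 with Aucklandiae Radix and by -0.48 (edgeR adjusted p = 2.02e-05) with Guibi-tang, and stood at -0.12 (adjusted p = 0.415) with Polygalae Radix. UBE2C and KIF14 were the 2 members not called with Guibi-tang.

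In the weaker extracts the dose made less difference. Menthae Herba had 6 members lower at the high dose than at the low dose, namely CDC25B, AURKA, CENPE, KIF20A, PRC1 and ANLN (9.28% of all genes lower), and 0 higher. Saengmaek-san had MAD2L1 higher and no other call (5.70% of all genes called). With Saposhnikoviae Radix edgeR called 0 members (0.377% of all genes), with 3 at an unadjusted p under 0.05 and 1 by DESeq2; without replicate 2 at the high dose, edgeR called 15. With Soyo-san edgeR and DESeq2 both called 0 (0.496% of all genes by edgeR), with 5 members at an unadjusted p under 0.05. The Soyo-san estimates of all 41 members were below 0, with a median of -0.17, and for 24 of them both high-dose libraries lay below both low-dose libraries, as they did for 20.1% of all genes.

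**Figure D5:**
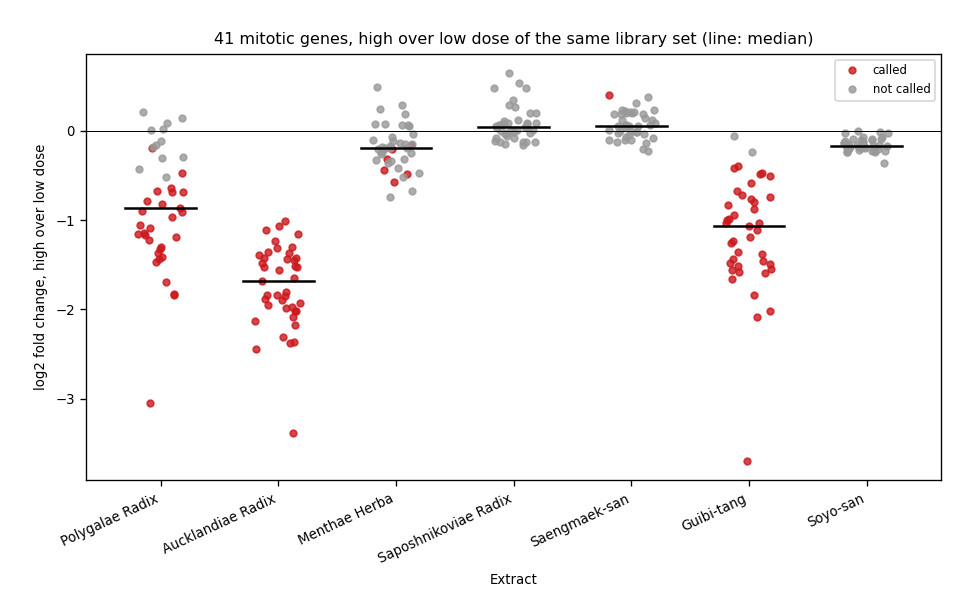
Log2 fold change of the high over the low dose for the 41 genes in each of 7 extracts; points are genes and lines are medians. The medians are -0.86 for Polygalae Radix, -1.68 for Aucklandiae Radix and -1.07 for Guibi-tang, and lie between -0.19 and 0.06 for the other extracts.

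Other genes of the cell cycle, from 3 lists that share no gene with the module, were read in the same fits. Their counts are to be read against the shares of all genes given above, 25.6% lower and 22.4% higher with Polygalae Radix, 17.0% and 15.7% with Aucklandiae Radix, and 26.6% and 23.6% with Guibi-tang. Of 42 further mitotic genes, 40 were lower and 0 higher with Aucklandiae Radix at the high dose (median -1.25), 13 were lower and 8 higher with Polygalae Radix (median -0.10), and 24 were lower and 3 higher with Guibi-tang (median -0.49). The Polygalae Radix counts were near the shares of all genes. SMC2, a condensin subunit, changed by -1.71 with Polygalae Radix and -1.69 with Guibi-tang. CDCA5, the cohesin protector sororin, rose by 1.06 and 0.51 in the same comparisons. Of 27 S phase genes, 15 were lower and 8 higher with Polygalae Radix (median -0.63), 11 lower and 1 higher with Aucklandiae Radix (median -0.18) and 15 lower and 6 higher with Guibi-tang (median -0.60). RRM1, a ribonucleotide reductase subunit, changed by -1.89 with Polygalae Radix and -1.76 with Guibi-tang, and CCNE2, a G1/S cyclin, rose by 1.43 and 1.14.

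Among 27 regulators upstream of the module that were tested, 5 were lower and 12 higher with Polygalae Radix, 8 lower and 6 higher with Aucklandiae Radix and 6 lower and 8 higher with Guibi-tang, the last near the shares of all genes. CDKN1A, the CDK inhibitor p21, averaged 82.2 CPM with Aucklandiae Radix and 46.8 CPM with Guibi-tang, against 22.5 CPM in vehicle. It rose by 1.87 log2 units (edgeR adjusted p = 2.97e-13) with Aucklandiae Radix and 1.06 (adjusted p = 1.68e-08) with Guibi-tang. It was also higher with Polygalae Radix, by 0.65 (adjusted p = 0.000367), and with Menthae Herba, by 0.59 (adjusted p = 0.00101). WEE1, the kinase that places inhibitory phosphate on CDK1, rose by 1.30 (adjusted p = 4.15e-07) with Polygalae Radix and 0.87 (adjusted p = 7.19e-05) with Guibi-tang. With Aucklandiae Radix it was lower, at -0.85 (adjusted p = 0.00115). LIN52, a subunit of the MuvB core, rose by 1.08 with Polygalae Radix and 0.85 with Guibi-tang. E2F8, a repressor of E2F targets, fell by 1.95 with Aucklandiae Radix and rose by 0.71 with Polygalae Radix. E2F7, its relative, rose by 1.23 with Guibi-tang and 1.17 with Aucklandiae Radix. The genes named from these lists ranked at the top by fold change among those called in at least 1 of the comparisons given.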

How the data were processed

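Expected counts per gene were estimated by the authors and deposited as 1 table of 60 libraries and 60675 Ensembl identifiers. The submitters' processing notes name GRCh38, RSEM 1.3.3 and STAR 2.7.3a, besides Trim Galore 0.6.5 and FastQC 0.11.9, without their roles, and the labels describe a directional poly(A) library read as paired ends. The annotation and the strand setting of the counting are not given in the sources used here. The vehicle is 0.1% DMSO in the sample labels and 2% in the series text, which was not settled. The deposited expected counts (9.62% of values not whole) were rounded. Symbols came from a separate list of gene names for 93.2% of identifiers, and gene coordinates and transcript lengths from GENCODE 29. Genes were kept by edgeR's filterByExpr (minimum count 10, minimum total 15), and libraries were scaled by TMM. A single edgeR 4.0.16 quasi-likelihood fit in R 4.3.3 with 25 group means and 35 residual degrees of freedom gave 31 comparisons, each adjusted by Benjamini-Hochberg over 19366 genes. Okbyeongpung-san was described on log2 CPM with a prior count of 2. The length slope was fitted over 10020 genes with mean log2 CPM of at least 3. The method was tested on simulated data. Alternatives were DESeq2 1.42.0, its size factors, no low-count filter, the replicate number as a block, the length slope as a covariate, and leaving libraries out. Fits that left out 1 library kept the genes and the fitted trend of the spread from the complete fit. The fit without the 10 libraries of low slope estimated that trend anew. The members and gene lists were chosen with earlier results of these data known. Full values are given for the 3 called members with the largest fall and rise in each high-dose comparison with vehicle and for the highest-expressed member of each role, and other values by role. No pair of libraries held identical values.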

Additional observations from a re-analysis of the deposited data

Results flagged for a closer look

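In 3 comparisons, 2 extracts of the same library set differed from each other at the high dose by the edgeR test of the difference itself. Aucklandiae Radix against Polygalae Radix gave 33 of 41 members called, 32 lower and 1 higher, and 28 to 33 when 1 library was left out. Menthae Herba against Saposhnikoviae Radix gave 7, all lower, and 4 to 17 when 1 library was left out. Guibi-tang against Saengmaek-san gave 37, all lower, and 35 to 37 when 1 library was left out. No group has 4 or more libraries, so no single library was tested as standing apart within its group.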

How the results depend on the processing

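Over the fits that changed 1 choice or left out 1 library, the count of members called against vehicle at the high dose ran from 23 to 35 with Polygalae Radix, 41 to 41 with Aucklandiae Radix and 34 to 38 with Guibi-tang. High against low dose it ran from 23 to 37, 41 to 41 and 38 to 40 with these extracts. Within sets it ran from 28 to 35 for Aucklandiae Radix against Polygalae Radix and from 35 to 41 for Guibi-tang against Saengmaek-san. The smaller counts depended on the choice, and the cause was not tested. Except with the length slope as a covariate, the shares of all genes called in the changed fits are not given here. Those counts therefore describe the members alone.

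With DESeq2 the counts against vehicle (medium, then low dose) were 3 and 5 with Polygalae Radix, 2 and 3 with Aucklandiae Radix, 3 and 2 with Menthae Herba, 6 and 5 with Saengmaek-san and 5 and 4 with Guibi-tang; the medium dose of Saposhnikoviae Radix gave 5, and its high against low dose 1. With DESeq2's size factors in edgeR, low-dose Aucklandiae Radix gave 1 and medium-dose Guibi-tang 5.

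Without a low-count filter, the high, medium and low doses gave 4, 0 and 0 calls with Menthae Herba, 1, 0 and 1 with Saposhnikoviae Radix, 5, 1 and 0 with Saengmaek-san and 0, 0 and 0 with Soyo-san. The medium and low doses gave 0 and 0 with Polygalae Radix and with Guibi-tang, and the medium dose 0 with Aucklandiae Radix. High against low gave 0 with Menthae Herba and 0 with Saengmaek-san, and Menthae Herba against Saposhnikoviae Radix 4. More genes share the adjustment in that fit.

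With the length slope as a covariate, calls of members against vehicle were more numerous. That fit called from 8.85% (medium-dose Soyo-san) to 24.6% (medium-dose Guibi-tang) of all genes at the medium and low doses. At the high doses it called 37.1% with Menthae Herba, 11.4% with Saposhnikoviae Radix, 35.6% with Saengmaek-san and 15.2% with Soyo-san. The high, medium and low doses gave 15, 8 and 7 with Menthae Herba, 12, 16 and 15 with Saposhnikoviae Radix, 26, 17 and 18 with Saengmaek-san and 5, 11 and 17 with Soyo-san. The medium and low doses gave 8 and 15 with Polygalae Radix, 15 and 15 with Aucklandiae Radix and 10 and 15 with Guibi-tang. The counts of medium-dose Polygalae Radix and Guibi-tang were near the shares of all genes, 18.2% and 24.6%. High against low gave 4 with Saposhnikoviae Radix (5.91% of all genes called), 7 with Saengmaek-san (22%) and 2 with Soyo-san (2.7%). Menthae Herba against Saposhnikoviae Radix gave 16 (35.1%). Without the 10 libraries of low slope, high doses gave 13 with Menthae Herba, 11 with Saposhnikoviae Radix and 21 with Saengmaek-san. Low-dose Saposhnikoviae Radix gave 1, Saengmaek-san 15 at the medium and 11 at the low dose, and medium-dose Guibi-tang 9. High against low gave 12 with Menthae Herba and 6 with Saengmaek-san, and Menthae Herba against Saposhnikoviae Radix 18.

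Leaving out 1 library at a time, the high, medium and low doses against vehicle gave 23 to 28, 1 to 1 and 0 to 0 calls with Polygalae Radix, 41 to 41, 0 to 1 and 0 to 0 with Aucklandiae Radix, 3 to 8, 0 to 0 and 0 to 0 with Menthae Herba, and 1 to 8, 0 to 1 and 1 to 15 with Saposhnikoviae Radix. They gave 7 to 12, 1 to 3 and 1 to 2 with Saengmaek-san, 34 to 36, 0 to 2 and 0 to 0 with Guibi-tang, and 1 to 1, 0 to 0 and 0 to 2 with Soyo-san. High against low gave 1 to 7 with Menthae Herba, 0 to 15 with Saposhnikoviae Radix and 0 to 1 with Saengmaek-san, and Menthae Herba against Saposhnikoviae Radix 4 to 17. Where a group of 2 lost 1 library, the lone library was assumed to vary like the other groups. With Saposhnikoviae Radix at the high dose, 1 call was made without vehicle replicate 3 or without its own replicate 2.

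Of 791 refitted values of named members, 735 kept direction and side of the threshold, 50 missed it, 3 passed it and 3 changed sign, all in high-dose Polygalae Radix without a call: CDK1 (-0.16 to 0.21 without 1 library), MAD2L1 (-0.35 to 0.018) and FOXM1 (-0.12 to 0.026).

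The replicate number as a block gave 28 calls with Polygalae Radix, 41 with Aucklandiae Radix and 37 with Guibi-tang at the high dose against vehicle, and moved no count by more than 1.5 times. The labels do not say that a number marks a shared culture, and in the comparisons with 3 pairs the deviations of same-numbered libraries did not correlate in every pair, except in Saengmaek-san at the medium dose (r of 0.14 to 0.61), so the numbers were not taken as pairs. Small groups, the lone vehicle set and the length slope limit what the low and medium doses show.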
